A study of Homo sapiens with 9 samples.

Results

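The 10 genes AXIN2, NKD1, ZNRF3, RNF43, NOTUM, DKK1, TCF7, LEF1, SP5 and LGR5 are known targets and feedback regulators of beta-catenin signalling, and their expression was followed in SNU-398 cells that overexpressed either isoform of EMX1. They were taken by name from the 60642 gene names of the deposited RNA-seq tables, and all 10 names had a row. Of these, 8 were among the 18574 genes with enough counts for a test, and SP5 and LGR5 were not. SNU-398 is an established human hepatocellular carcinoma (HCC) line. There were 3 libraries of the vector control, 3 of EMX1-FL, in which the full-length isoform of the homeobox transcription factor EMX1 was overexpressed, and 3 of EMX1-X1, in which the isoform with the alternative terminal exon was overexpressed. The overexpressing cells were made stable by lentivirus, and the cells of all 3 groups are labelled as wild type and as screened for puromycin resistance, so the vector control also carries resistance. Neither the labels nor the methods say whether the 3 libraries of a group came from separate cultures, or whether the stable cells were a pool or a clone, so the p-values measure only the spread between these libraries.

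In canonical WNT signalling, a destruction complex built on AXIN and APC marks beta-catenin for degradation until a WNT ligand bound to a Frizzled receptor and its LRP co-receptor stops it, and beta-catenin then enters the nucleus and activates genes bound by TCF and LEF factors. Many of the activated genes encode brakes on the pathway, at the level of the ligand, the receptor, the destruction complex or the DNA, and their mRNA levels are widely used as a readout of beta-catenin activity. In liver the pathway is known for setting the gene programme of hepatocytes around the central vein and for activating mutations of CTNNB1, the beta-catenin gene, in HCC, and SNU-398 is known to carry such a mutation.

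Between 21562703 and 25197970 read pairs were counted per library. EMX1 was listed at 9.34 to 12.9 CPM (counts per 1000000 counted read pairs) in the vector control, at 135 to 251 CPM in EMX1-FL and at 145 to 294 CPM in EMX1-X1, as labelled, and a count per gene name does not tell the isoforms apart. Of 7 hepatocyte and HCC markers, AFP and TTR were at 0 in all 9 libraries, HNF4A was at most 0.0223 TPM (transcripts per 1000000, a level per exon length), and 2 had enough counts for a test. These were GPC3, an oncofetal HCC marker, at 17.9 ± 3.55 TPM (SD, n = 3) in the vector control, and ALB, albumin, at 0.618 ± 0.142 TPM there, 1.86 ± 0.865 TPM in EMX1-FL and 1.44 ± 0.460 TPM in EMX1-X1. ALB passed the threshold for a call used for the members (an unadjusted p under 0.05 and a 2-fold change), with log2 fold changes of 1.46 ± 0.45 (SE) and 1.11 ± 0.45 (edgeR, adjusted p = 0.467 and 0.576). Of 5 mesenchymal markers, led by VIM at 846 ± 132 TPM in the vector control, 4 with EMX1-FL and 3 with EMX1-X1 had an unadjusted p under 0.05. SNAI2, at 3.40 ± 0.751 TPM in the vector control, 14.7 ± 1.12 TPM in EMX1-FL and 8.71 ± 1.57 TPM in EMX1-X1, was called in both, with log2 fold changes of 2.02 ± 0.22 (adjusted p = 0.009 in edgeR) and 1.27 ± 0.22 (0.185), and ZEB1 was called for EMX1-FL at 1.22 ± 0.53 (0.837). The summed level of the 5 was 753 to 1009 TPM in the vector control, 935 to 1206 TPM in EMX1-FL and 819 to 903 TPM in EMX1-X1, and that of the 7 was 15.5 to 22.3, 18.4 to 30.1 and 18.0 to 22.2 TPM. The part of these markers in the results for the members was not tested. Of 3 fibroblast markers, led by LUM at 653 ± 188 TPM in the vector control, 1 with EMX1-FL and 2 with EMX1-X1 had an unadjusted p under 0.05 in edgeR. Their log2 fold changes for EMX1-FL and EMX1-X1 were 0.17 and -0.02 for LUM, -0.61 and -0.46 for DCN, and -0.24 and 0.67 for COL1A1. Of 4 epithelial markers, led by EPCAM at 4.59 ± 1.13 TPM in the vector control, 3 were tested. Of these, 0 with EMX1-FL and 1 with EMX1-X1 (CDH1, 0.75) had an unadjusted p under 0.05. None of either list was called. All 3 leukocyte and all 3 endothelial markers were below 1 TPM in every library. The libraries also differed in a way that the groups do not explain. Over all genes tested, 37.3% of the variance lay on the first principal component, which separated 4 libraries (cluster B: EMX1-X1 2 and 3, EMX1-FL 1 and vector control 3) from the other 5 (cluster A: EMX1-X1 1, EMX1-FL 2 and 3, and vector control 1 and 2). Genes highest in cluster A had a lower median GC content (39.7%) than genes highest in cluster B (59.1%). The clusters were defined from these data and are no condition of the study, and EMX1 itself was at 251 to 294 CPM in the 3 overexpressing libraries of cluster B and at 135 to 145 CPM in those of cluster A.

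TCF and LEF factors recognise a motif of which CTTTGA is a form, and many homeodomain proteins recognise TAATTA. The reference promoters of the members were searched for both, on both strands. RefSeq promoter windows on GRCh38.p14, from 250 bases before to 50 bases after a start, matched 5 of the 10 members (SP5, LEF1, TCF7, DKK1 and RNF43), with 7 windows in all. CTTTGA was found 3 times in the SP5 window and 2 times in the DKK1 window, and in no window of LEF1, TCF7 or RNF43. Other forms of the TCF and LEF motif were not searched for, so a window without CTTTGA may still hold a site. TAATTA was in none of the 7. Other forms of homeodomain motifs, and bases outside the windows, were not searched, so sites for EMX1 may still be present. Of 35116 windows of this length, 12.9% held at least 1 CTTTGA, 1.29% held at least 2, 0.0997% held at least 3, and 4.84% held TAATTA. The 250 bases before the start are shown for SP5 and DKK1, which hold the matches, and for LEF1, the most abundant member with a window, 5′ to 3′ on the strand of the gene, with each CTTTGA or its reverse complement TCAAAG in capitals.
SP5: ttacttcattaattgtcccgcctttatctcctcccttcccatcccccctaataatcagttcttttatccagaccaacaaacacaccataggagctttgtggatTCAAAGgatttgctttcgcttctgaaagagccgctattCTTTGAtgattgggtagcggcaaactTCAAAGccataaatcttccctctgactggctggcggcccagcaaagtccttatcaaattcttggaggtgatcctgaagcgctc
DKK1: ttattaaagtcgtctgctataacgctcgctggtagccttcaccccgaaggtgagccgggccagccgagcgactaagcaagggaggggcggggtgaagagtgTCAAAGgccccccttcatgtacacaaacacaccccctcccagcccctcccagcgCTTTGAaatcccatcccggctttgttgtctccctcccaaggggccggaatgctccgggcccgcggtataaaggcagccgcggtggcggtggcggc
LEF1: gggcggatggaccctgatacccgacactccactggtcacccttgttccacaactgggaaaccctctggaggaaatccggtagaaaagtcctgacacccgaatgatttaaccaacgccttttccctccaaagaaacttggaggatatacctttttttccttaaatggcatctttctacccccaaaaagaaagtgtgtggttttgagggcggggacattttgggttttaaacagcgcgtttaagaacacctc
The SP5 sequence spans chr2:170715087-170715336 on the plus strand, and its matches begin 147, 109 and 83 bases before the start. The DKK1 sequence spans chr10:52314031-52314280 on the plus strand, with matches that begin 149 and 95 bases before the start. The LEF1 sequence spans chr4:108166302-108166551 on the minus strand, before a RefSeq start that lies inside the gene as the count table lists it. These matches describe letters in the reference, and no binding was measured. The gene with 3 matches, SP5, was among the members with the fewest counts in these cells.

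The baseline of the members in vector control cells spanned the whole range of expression. AXIN2 was the most abundant, at 392 ± 10.5 TPM (SD, n = 3), above 99.6% of the gene names listed, and LEF1 followed at 162 ± 6.66 TPM. TCF7 was at 31.9 ± 1.24 TPM, ZNRF3 at 27.3 ± 0.992 TPM and NOTUM at 14.8 ± 1.05 TPM. These 5 genes include a destruction complex scaffold, both DNA-bound factors, a receptor ligase and a secreted inhibitor. NKD1 was at 6.38 ± 0.318 TPM and DKK1 at 1.83 ± 0.80 TPM. RNF43, SP5 and LGR5 were below 1 TPM, at 0.199 ± 0.162, 0.0511 ± 0.0886 and 0.00858 ± 0.0149 TPM. From AXIN2 down to RNF43 the ranges of neighbours in this order did not overlap, whereas those of RNF43 and SP5 and of SP5 and LGR5 did. The smallest step without overlap was the 1.17-fold step from TCF7 to ZNRF3, and the values of both rest on a length that sums all exon bases of a gene name.

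For RNF43 the low level is limited by how reads were counted. Of its exon bases on chr17:58352500-58417595, 73.9% are shared with exons of other gene names (SUPT4H1, TSPOAP1-AS1 and AC004687.2), and read pairs in such shared bases were not assigned to any gene. SUPT4H1, which encodes a general elongation factor and shares 89.85% of its own exon bases, was listed at only 0 to 4 counts per library. Divided over its unshared bases alone, RNF43 came to 0.762 TPM in the vector control. The other member with a large shared part was AXIN2, with 25.18% of its exon bases in AC004805.1, and over its unshared bases alone it came to 524 TPM. The shared part was 10.22% for DKK1 and at most 5.2% for the other members. The level of RNF43 can therefore not be set against that of other genes.

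No member was called in any of the 3 comparisons. Following the study's threshold, a call needed an unadjusted p under 0.05 together with a log2 fold change of 1 or more in either direction, in edgeR's quasi-likelihood test on all 9 libraries. For EMX1-FL against the vector control, 0 of the 8 members tested were called, where 2.04% of all genes tested were called higher and 0.382% lower. For EMX1-X1 against the vector control, 0 of 8 were called, beside 1.95% higher and 0.544% lower among all genes. For EMX1-FL against EMX1-X1, 0 of 8 were called, beside 0.748% higher and 0.668% lower. A count of 0 among 8 genes is near these shares. In this fit 0 of the 8 had an unadjusted p under 0.05 in any comparison, where 5.80%, 8.11% and 7.63% of all genes did. DESeq2 and limma on log2(TPM + 1) called 0 of the 8 as well. NKD1 for EMX1-FL was, however, under 0.05 before adjustment in DESeq2 (adjusted p = 0.741) and in limma on log2(TPM + 0.1) (0.787). With the cluster as a covariate in edgeR, NKD1 and TCF7 were. NOTUM for EMX1-X1 was in edgeR without the count filter, with the 6 libraries alone, and without EMX1-FL 1 or EMX1-X1 1 (adjusted p of 0.206 to 0.272). TCF7 for EMX1-FL was without EMX1-FL 1 (0.196). Between the isoforms NOTUM, TCF7 and ZNRF3 were without EMX1-FL 1, NOTUM and ZNRF3 without EMX1-X1 1, and NOTUM without the filter. Over the 8 members the median log2 fold change from the vector control was 0.18 with EMX1-FL and 0.23 with EMX1-X1, and that between the isoforms was -0.09 (EMX1-FL against EMX1-X1), beside medians of 0.04, 0.01 and 0.02 over all genes tested. The CPM of the compared groups did not overlap for 2 of 8 members, NKD1 and DKK1, in EMX1-FL against the vector control (10.5% of all genes), for 2 of 8, NKD1 and LEF1, in EMX1-X1 against the vector control (14.7%) and for 0 of 8 in EMX1-FL against EMX1-X1 (8.38%). The first 2 comparisons share the vector control libraries. In bulk RNA, fewer cells that express a gene and less RNA of it per cell cannot be told apart.

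Among the brakes inside the cell, AXIN2 (chr17:65528563-65561648, minus strand) encodes a scaffold of the destruction complex and is the most general beta-catenin target. It was at 553, 588 and 610 CPM in the vector control, at 818, 593 and 516 CPM in EMX1-FL and at 549, 666 and 683 CPM in EMX1-X1. The groups overlapped, and EMX1-FL held both the highest and the lowest library of the 9. The log2 fold change was 0.14 ± 0.18 (SE) for EMX1-FL and 0.12 ± 0.18 for EMX1-X1 against the vector control (edgeR, adjusted p = 0.997 and 0.856), with 95% intervals of -0.31 to 0.58 and -0.33 to 0.56. A 2-fold change of AXIN2 in either direction was thus outside both intervals. The difference for EMX1-FL turned to -0.07 without EMX1-FL library 1, the highest.

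NKD1 (chr16:50548396-50649249, plus strand) encodes a protein that binds Dishevelled and dampens the signal from the receptor. It was at 30.7, 31.9 and 32.0 CPM in the vector control, at 49.7, 36.2 and 37.2 CPM in EMX1-FL and at 35.0, 36.5 and 41.6 CPM in EMX1-X1. Every library of either overexpression was above every vector control library, and NKD1 was the one member for which this held in both comparisons. The log2 fold change was 0.38 ± 0.18 (SE) for EMX1-FL and 0.26 ± 0.18 for EMX1-X1, with 95% intervals of -0.06 to 0.82 and -0.18 to 0.70. Neither passed the test (edgeR, unadjusted p = 0.0561 and 0.178, adjusted p = 0.870 and 0.700). The exact permutation p was 0.1 in both, the smallest that 3 against 3 libraries can give. The log2 difference of EMX1-FL from the vector control was 0.23 within cluster A (2 libraries against 2) and 0.63 within cluster B (1 against 1). The corresponding values for EMX1-X1 were 0.16 (1 against 2) and 0.28 (2 against 1).

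At the receptor, ZNRF3 (chr22:28883572-29057488, plus strand) and RNF43 encode transmembrane ubiquitin ligases that remove Frizzled receptors from the cell surface. ZNRF3 was at 50.4, 52.2 and 60.9 CPM in the vector control, at 66.2, 48.1 and 41.7 CPM in EMX1-FL and at 51.2, 72.0 and 73.8 CPM in EMX1-X1. The 4 highest libraries were the 4 of cluster B, from all 3 groups. Its log2 fold change was -0.07 ± 0.22 (SE) for EMX1-FL and 0.27 ± 0.22 for EMX1-X1 against the vector control (edgeR, adjusted p = 0.997 and 0.729). EMX1-FL against EMX1-X1 gave -0.34 ± 0.22 (adjusted p = 0.616), with a 95% interval of -0.87 to 0.19. RNF43 had 3 to 19 counts in any library. Its intervals, -1.30 to 1.85 for EMX1-FL and -1.08 to 2.02 for EMX1-X1, include 2-fold changes, so a change of that size was neither found nor excluded at these counts.

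The secreted brakes were NOTUM, a carboxylesterase that strips the lipid from WNT ligands, and DKK1, which binds the LRP co-receptors. NOTUM (chr17:81952507-81961840, minus strand) was at 11.6, 11.2 and 14.1 CPM in the vector control, at 24.1, 9.10 and 9.98 CPM in EMX1-FL and at 12.6, 23.4 and 25.6 CPM in EMX1-X1. It varied more between libraries than any other well-counted member, and its values were high in 3 overexpressing libraries, all of cluster B, and low in the others. The log2 fold change was 0.74 ± 0.37 (SE) for EMX1-X1 (95% interval -0.16 to 1.64, adjusted p = 0.623 in edgeR) and 0.23 ± 0.37 for EMX1-FL (adjusted p = 0.997). Within cluster A the difference from the vector control was 0.15 on the log2 scale for EMX1-X1 and -0.26 for EMX1-FL, and within cluster B it was 0.79 and 0.77. Without EMX1-FL library 1, EMX1-FL against EMX1-X1 went from -0.51 (adjusted p = 0.628) to -1.09 in edgeR (adjusted p = 0.0462), which would be a call, and EMX1-FL against the vector control turned to -0.37. DKK1 (chr10:52314281-52318042, plus strand) had 13, 35 and 35 counts in the vector libraries, 35, 47 and 35 with EMX1-FL and 42, 29 and 27 with EMX1-X1. Scaled to CPM, the 3 EMX1-FL libraries (1.55 to 1.98) were just above the 3 vector control libraries (0.557 to 1.53), while the log2 fold change of 0.54 ± 0.41 (SE) did not pass the test (edgeR, adjusted p = 0.997). For EMX1-X1 it was 0.20 ± 0.41.

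TCF7 and LEF1 encode DNA-bound partners of beta-catenin that are also its targets. TCF7 (chr5:134114681-134151865, plus strand) was at 83.8, 89.6 and 103 CPM in the vector control, at 99.7, 68.5 and 58.7 CPM in EMX1-FL and at 81.8, 102 and 100 CPM in EMX1-X1. EMX1-FL libraries 2 and 3 were the lowest of the 9, and EMX1-FL library 1 was within the range of the vector control. The log2 fold change was -0.28 ± 0.21 (SE) for EMX1-FL and 0.04 ± 0.21 for EMX1-X1 against the vector control, and -0.33 ± 0.21 for EMX1-FL against EMX1-X1 (edgeR, adjusted p = 0.997, 0.959 and 0.617). Within cluster A the log2 difference of EMX1-FL from the vector control was -0.45 (2 libraries against 2), and within cluster B it was -0.05 (1 against 1). LEF1 (chr4:108047545-108168956, minus strand) was at 244, 234 and 266 CPM in the vector control, at 179, 244 and 229 CPM in EMX1-FL and at 218, 209 and 217 CPM in EMX1-X1. All 3 EMX1-X1 libraries were below all 3 of the vector control, and the lowest library of the 9 was EMX1-FL 1. The log2 fold changes of -0.21 ± 0.16 (SE) for EMX1-X1 and -0.19 ± 0.16 for EMX1-FL did not pass the test (edgeR, adjusted p = 0.721 and 0.997). Both 95% intervals, -0.59 to 0.18 and -0.58 to 0.19, lay within a 2-fold change.

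**Figure D1:**
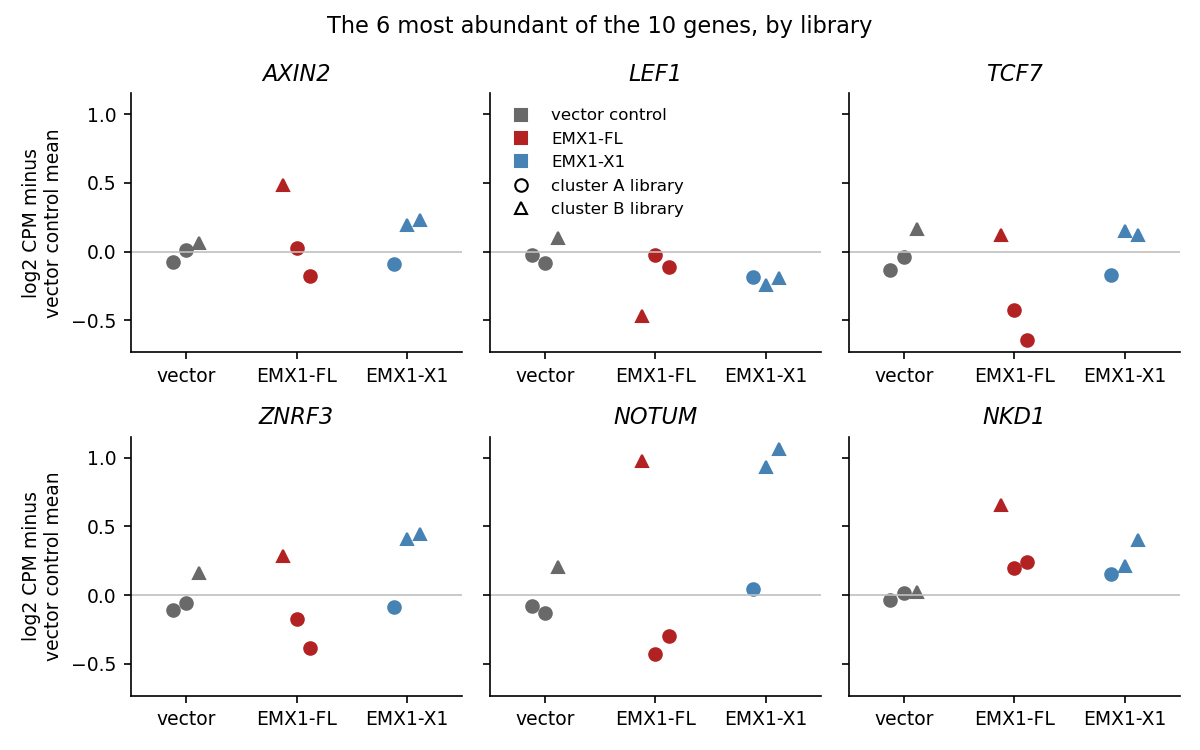
Log2 CPM of the 6 most abundant members in each library, minus the mean of the 3 vector control libraries. Colours mark the group and triangles the 4 libraries of cluster B; NKD1 lies above the vector control libraries in all 6 overexpressing libraries, while NOTUM, ZNRF3, TCF7 and AXIN2 are higher in the triangles than in the circles.

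LGR5, a receptor for R-spondins that marks WNT-dependent stem cells, and SP5, a zinc finger factor that acts in WNT feedback, were too low for a test. LGR5 (chr12:71439798-71586310, plus strand) had 1 count in 3 of the 9 libraries, 1 in each group, and 0 in the others, and a count of 0 allows up to 3 counts, or 0.121 to 0.139 CPM depending on the library. It was not detectable above this limit in any group. SP5 (chr2:170715337-170718078, plus strand) had 2, 0 and 0 counts in the vector libraries, 14, 4 and 1 with EMX1-FL and 1, 0 and 3 with EMX1-X1. The sum of 19 counts in EMX1-FL against 2 in the vector control gave a ratio of 9.86 with a 95% interval of 2.38 to 87.3, which covers counting error only, and 14 of the 19 counts came from EMX1-FL library 1. Fitted without the filter on low counts, SP5 had a log2 fold change of 3.06 ± 1.5 (SE) for EMX1-FL (adjusted p = 0.888 in edgeR), a call by the unadjusted threshold of the study, and 0.83 ± 1.58 for EMX1-X1 (adjusted p = 0.93). The highest level of SP5 in any library was 1.10 TPM, in EMX1-FL library 1.

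In CPM, 4 of the 8 members tested were higher in every library of cluster B than in every library of cluster A. The same held for 16.0% of all genes tested. A further 17.1% of all genes and 0 members were lower there without overlap. The clusters were drawn from these same genes, so the values that follow are a description of how the members varied between libraries and not a property found in the members alone. For ZNRF3 the range was 41.7 to 52.2 CPM in the 5 libraries of cluster A and 60.9 to 73.8 CPM in the 4 of cluster B. For TCF7 it was 58.7 to 89.6 and 99.7 to 103 CPM, for NOTUM 9.10 to 12.6 and 14.1 to 25.6 CPM, and for AXIN2 516 to 593 and 610 to 818 CPM. The mean log2 difference of cluster B from cluster A was 1.00 for NOTUM, 0.49 for ZNRF3, 0.41 for TCF7 and 0.31 for AXIN2. The CPM ranges of NKD1, LEF1, DKK1 and RNF43 overlapped between the clusters. In TPM those of AXIN2 and NOTUM overlapped as well. AXIN2 was at 381 TPM in vector control 3 of cluster B and at 383 TPM in EMX1-FL 3 of cluster A. NOTUM was at 15.8 TPM in vector control 3 and at 16.3 TPM in EMX1-X1 1 of cluster A. NOTUM, with a GC content of 66.5% over its longest transcript, had the highest of the members tested, and ZNRF3, TCF7 and AXIN2 were at 53.5%, 54.9% and 53.1%. Members whose CPM ranges overlapped had like values, LEF1 52.1%, NKD1 51.6% and RNF43 50.7%. DKK1 was at 43.5%, beside a median of 48.1% over all genes tested with a value. The part of GC content in these differences was not tested.

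**Figure D2:**
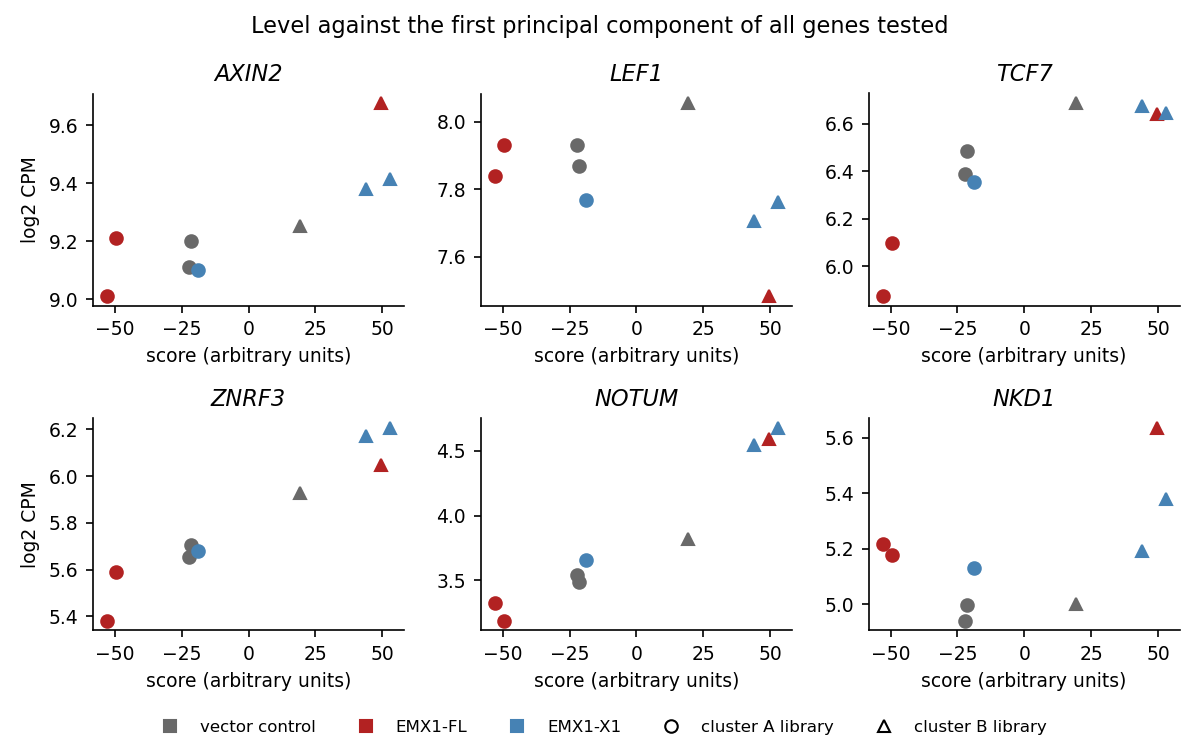
Log2 CPM of the 6 most abundant members against the score of each library on the first principal component of all genes tested, whose unit is arbitrary. NOTUM, ZNRF3, TCF7 and AXIN2 are higher in every cluster B library (triangles) than in every cluster A library (circles), across all 3 groups, and NKD1 and LEF1 are not.

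The genes outside the lists whose log2 CPM over the 9 libraries was most like that of AXIN2 were RECQL4 (Pearson r = 0.979), RRS1 (0.977), SH3BP2 (0.973), HNRNPF (0.972) and RASA3 (0.971). Among the members, the r of AXIN2 was 0.83 with NOTUM, 0.81 with ZNRF3, 0.77 with NKD1, 0.69 with TCF7, 0.05 with DKK1, -0.14 with RNF43 and -0.70 with LEF1. All these values describe the same 9 libraries, which share the separation into clusters A and B.

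The other genes of the pathway were taken from 6 lists of 82 genes, of which 68 were tested and 61 had a mean of 1 TPM or more in the vector control. For EMX1-FL against the vector control 2 of 68 were called higher and 0 lower, for EMX1-X1 4 of 68 were called higher and 0 lower, and for EMX1-FL against EMX1-X1 0 were called higher and 2 lower. As shares of the 68, those called higher came to 2.94%, 5.88% and 0%, beside the 2.04%, 1.95% and 0.748% of all genes given for the members, and those called lower to 0%, 0% and 2.94%, beside 0.382%, 0.544% and 0.668%. An unadjusted p under 0.05 was found for 9, 13 and 10 of the 68 (13.2%, 19.1% and 14.7%, against 5.80%, 8.11% and 7.63% of all genes), and the groups did not overlap for 12, 13 and 7 (17.6%, 19.1% and 10.3%, against 10.5%, 14.7% and 8.38%). DESeq2 called 2, 3 and 3 of the 68. None had an adjusted p under 0.05 in edgeR, the lowest in the 3 comparisons being 0.216, 0.424 and 0.611. The median log2 fold change of the 68 was 0.04, 0.21 and -0.20, beside 0.04, 0.01 and 0.02 over all genes tested. The groups were unequally spread over the clusters: cluster B held EMX1-X1 2 and 3, but only EMX1-FL 1 and vector control 3. The part of the clusters in these shares and medians was not tested.

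Among the 12 genes of beta-catenin and its destruction complex, all 12 were tested and 0 were called in each comparison by edgeR or DESeq2, with 0, 0 and 2 at an unadjusted p under 0.05. CTNNB1, beta-catenin itself, led the list at 111 ± 5.39 TPM in the vector control, 115 ± 21.5 TPM in EMX1-FL and 110 ± 8.60 TPM in EMX1-X1. Among the 12 other TCF factors and co-factors 0 were also called, with 2, 1 and 3 at an unadjusted p under 0.05, and the co-repressor TLE1 was the highest at 143 ± 6.11 TPM.

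Among 14 WNT receptors and co-receptors 13 were tested, with 1, 3 and 2 at an unadjusted p under 0.05, and FZD8, a Frizzled receptor, was the one called. It was at 0.300, 0.960 and 0.206 CPM in the vector control, at 0.577, 0.505 and 0.600 CPM in EMX1-FL and at 0.666, 2.24 and 1.45 CPM in EMX1-X1. The log2 fold change of 1.57 ± 0.60 (SE) for EMX1-X1 against the vector control (edgeR, adjusted p = 0.568) was no longer a call without vector control 1 (1.31), vector control 3 (1.19) or EMX1-X1 library 2 (1.12). FZD6, the most abundant receptor, was at 38.9 ± 11.8 TPM in the vector control.

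Among 17 secreted antagonists and R-spondins 13 were tested, with 2, 4 and 1 at an unadjusted p under 0.05, and only RSPO3, a ligand of the LGR receptors, was called. It was at 0.471, 1.09 and 0.577 CPM in the vector control, at 0.932, 1.77 and 2.49 CPM in EMX1-FL and at 1.33, 0.457 and 0.687 CPM in EMX1-X1. Its log2 fold change of 1.28 ± 0.53 (SE) for EMX1-FL against the vector control (edgeR, adjusted p = 0.803) was not called without vector control 1 (1.05), vector control 3 (1.13), EMX1-FL 2 (1.24) or EMX1-FL 3 (0.92). For EMX1-X1 it was 0.21 ± 0.54. DKK2, a relative of DKK1 and the highest of the list, was at 129 ± 33.1 TPM in the vector control, far above DKK1.

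Among 17 other general beta-catenin targets 13 were tested, with 3, 5 and 1 at an unadjusted p under 0.05, led by CCND1, cyclin D1, at 181 ± 9.70 TPM. TBXT, the brachyury factor of the early embryo, was at 2.01, 2.18 and 3.67 CPM in the vector control, at 7.41, 5.10 and 6.24 CPM in EMX1-FL and at 4.29, 7.02 and 6.18 CPM in EMX1-X1. All 6 overexpressing libraries were above the vector control, and TBXT was called in both comparisons, with log2 fold changes of 1.25 ± 0.30 and 1.15 ± 0.30 (SE; edgeR, adjusted p = 0.216 and 0.424). The call for EMX1-FL held without each library in turn, and that for EMX1-X1 was lost by a small margin without vector control 1 (0.98) or EMX1-X1 2 (0.99). NKD2, the paralogue of NKD1, was at 23.6, 26.1 and 29.2 CPM in the vector control, at 65.7, 25.3 and 27.6 CPM in EMX1-FL and at 29, 61.5 and 67.8 CPM in EMX1-X1. Like NOTUM it was high in the 3 overexpressing libraries of cluster B and near the vector control in the other 3. Its log2 fold change of 1.00 ± 0.38 (SE) for EMX1-X1 (edgeR, adjusted p = 0.568) was at the limit of a call and fell below it in 13 of 19 alternatives: 6 of the 9 that leave out a library, with values of 0.77 to 0.99, and 7 others, among them DESeq2 (0.98) and the cluster as a covariate (0.58). BAMBI, a decoy receptor for BMP and TGF-beta ligands, was at 1.80, 1.92 and 3.34 CPM in the vector control. It was at 4.66, 2.74 and 4.90 CPM in EMX1-FL and at 3.91, 4.90 and 6.78 CPM in EMX1-X1. The log2 fold change was 0.80 ± 0.34 (SE) for EMX1-FL, which was not called, and 1.14 ± 0.34 for EMX1-X1, which was (edgeR, adjusted p = 0.828 and 0.482). EMX1-FL against EMX1-X1 gave -0.35 ± 0.33. Without vector control 1, vector control 2 or EMX1-X1 3 the value for EMX1-X1 was 0.97, 1.00 and 0.89, in each case just under the limit. BMP4, a secreted ligand of the BMP pathway, was at 8.99, 7.86 and 9.19 CPM in the vector control, at 7.45, 5.39 and 2.96 CPM in EMX1-FL and at 8.36, 13.7 and 12 CPM in EMX1-X1. It was called lower in EMX1-FL than in EMX1-X1, with no overlap between these groups and a log2 fold change of -1.11 ± 0.31 (SE; edgeR, adjusted p = 0.611), which was -0.83 without EMX1-FL 3 and -0.95 without EMX1-X1 2.

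**Figure D3:**
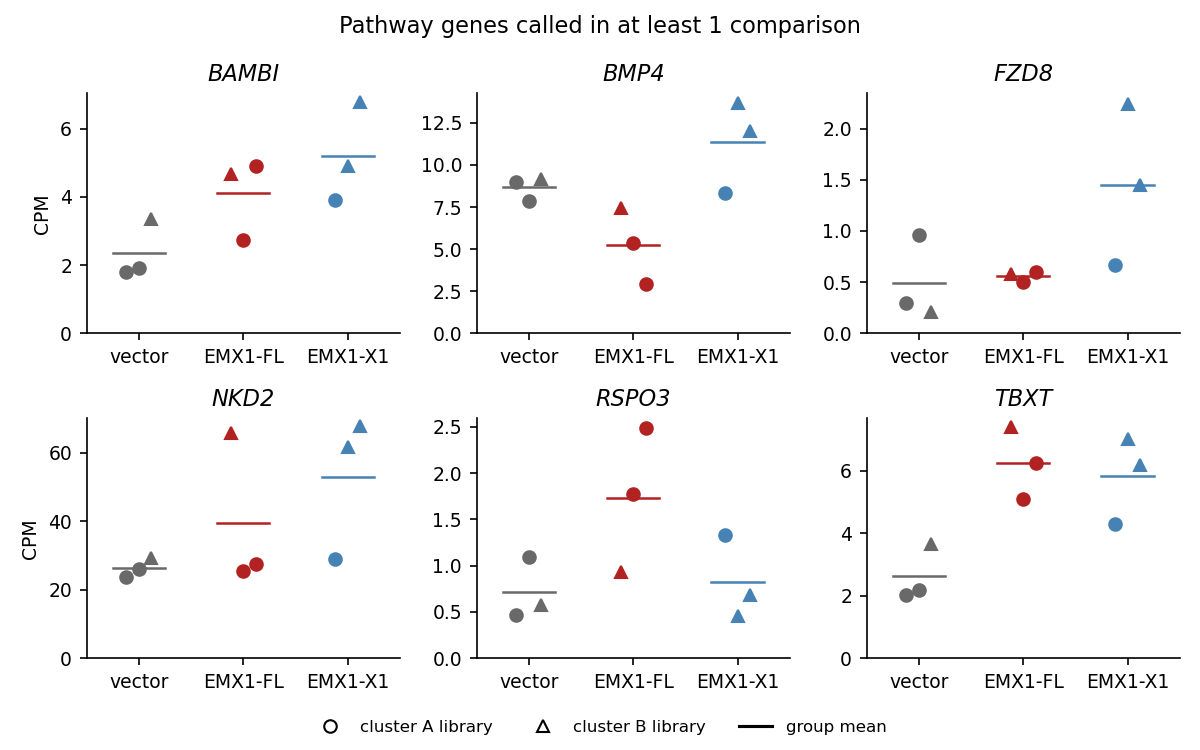
CPM, on linear axes that start at 0, of the 6 pathway genes outside the 10 that were called in at least 1 comparison, in each library. Horizontal bars are group means and triangles the libraries of cluster B; TBXT is above the vector control in all 6 overexpressing libraries, and NKD2 is high in 3 triangles of the overexpressing groups and at 23.6 to 29.2 CPM elsewhere.

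Of 10 known targets of beta-catenin in hepatocytes, 5 were tested and 0 were called in any comparison, with 1, 0 and 1 at an unadjusted p under 0.05. In the vector control OAT, ornithine aminotransferase, was at 118 ± 9.07 TPM and 4 of the 10 reached 1 TPM. GLUL, glutamine synthetase, was at 22.9 ± 2.84 TPM, while CYP2E1 was at 0.142 ± 0.116 TPM. AXIN2 and LEF1 were thus expressed at a high level in cells in which 6 of the 10 hepatocyte targets were below 1 TPM.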

How the data were processed

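For each of the 9 libraries the authors deposited unnormalized counts (read pairs on each gene name) and TPM on a log2 scale, as log2(TPM + 1). Reads were trimmed with fastp and aligned with STAR. For counting, the table's header gives featureCounts 2.0.1 (exons grouped by gene name, unstranded, GRCh38 with Ensembl release 99), whereas the submitters' processing notes give version 2.0.6 and the paper's methods RSEM. Pairs on exons of more than 1 gene were left uncounted. The deposited log2 values differed by at most 4.98e-06 from values recomputed from the counts and the listed lengths. All value columns were assigned to samples by name.

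The main test was edgeR's quasi-likelihood F test (version 4.0.16, R 4.3.3) on TMM-scaled counts after filterByExpr, in a single fit of all 9 libraries with no covariate, with Benjamini-Hochberg adjustment over the 18574 genes tested. CPM use the TMM-normalized library sizes. The SE of a log2 fold change is its absolute value divided by the square root of F. Its 95% interval uses the t distribution with the 6 residual degrees of freedom of the fit. Such an interval can include 0 where the edgeR p is under 0.05. Single members were also compared with a two-sided exact permutation test of log2 CPM. Intervals of summed counts are exact at 95% and, like the limit of 3 counts behind a 0, cover counting error only. The alternatives changed the scaling (RLE or upper-quartile factors), the tool (DESeq2 1.42.0, or limma 3.58.1 on TPM with a pseudocount of 1 or 0.1), the filter (only 1 count in total, or 10 counts in all libraries), or the samples and terms (the 6 libraries of a comparison alone, a block for the replicate number, the cluster as a covariate, and each of the 9 libraries left out). GC content came from GENCODE release 29 and was found for 95.6% of the genes tested; the genes highest in a cluster were those with an absolute r of at least 0.8 with the first component. Promoter windows came from RefSeq.

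The members, the lists and the alternatives were chosen with earlier results of these data known. Genes named are all 10 members, every pathway gene called in at least 1 comparison with the most abundant gene of each list, the 5 genes most like AXIN2, and EMX1. Other genes named (the cell type markers, GLUL, CYP2E1 and the genes that share exons with members) were chosen after values were seen.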

Additional observations from a re-analysis of the deposited data

Results flagged for a closer look

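Among the pathway genes, 2 stood out because their differences under the same contrast with the vector control differed between the isoforms. BMP4 differed between EMX1-FL and EMX1-X1 by a log2 fold change of -1.11 (edgeR, adjusted p = 0.611), at 5.27 ± 2.25 CPM (SD, n = 3) in EMX1-FL and 11.4 ± 2.74 CPM in EMX1-X1. FZD8 differed by -1.37 (adjusted p = 0.611), at 0.561 ± 0.0494 and 1.45 ± 0.789 CPM. Both pass the unadjusted threshold and neither the adjusted one, and for both the 3 EMX1-FL libraries were below the 3 EMX1-X1 libraries. The FZD8 call was lost without any of EMX1-FL 1 to 3 (-1.37, -1.31 and -1.42) and without EMX1-X1 2 (-0.92) or 3 (-1.37). None of the 8 members tested was called between the isoforms.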

How the results depend on the processing

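The count of members called stayed at 0 in all 3 comparisons under the alternatives run, with 2 exceptions. SP5 made it 1 for EMX1-FL against the vector control where no filter beyond 1 count in total was used, and NOTUM made it 1 for EMX1-FL against EMX1-X1 without EMX1-FL library 1 (range 0 to 1 over the 9 libraries left out). The number of members at 1 TPM or more in the vector control was 7, also with any of its libraries left out, and 6 as CPM per kb of exon.

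The members' log2 fold changes did not pass the test, and 28 of their values under alternatives had the other sign than the reported one. With the cluster as a covariate these were AXIN2 at -0.00044 and TCF7 at -0.10 for EMX1-X1 against the vector control, and LEF1 at -0.02 for EMX1-FL against EMX1-X1. With limma on log2(TPM + 1) they were AXIN2 at -0.0031 and LEF1 at -0.00049 for EMX1-FL against EMX1-X1 and ZNRF3 at 0.01 for EMX1-FL against the vector control, and with log2(TPM + 0.1) they were -0.0031, -0.00059 and 0.01. With the 9 libraries left out in turn, EMX1-FL against the vector control ranged from -0.07 to 0.27 for AXIN2, from -0.17 to 1.08 for RNF43, from -0.28 to 0.07 for ZNRF3 and from -0.37 to 0.44 for NOTUM. EMX1-X1 against the vector control ranged from -0.03 to 0.12 for TCF7 and from -0.15 to 0.41 for DKK1. EMX1-FL against EMX1-X1 ranged from -0.18 to 0.16 for AXIN2, from -0.02 to 0.20 for NKD1, from -0.48 to 0.10 for RNF43, from -0.08 to 0.15 for LEF1 and from -1.09 to -0.28 for NOTUM. The cause of these changes of sign was not tested.

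Libraries with the same replicate number did not deviate together on average (mean correlation of deviations -0.118, against 0.0565 for different numbers). The mean for the same number was -0.326 between EMX1-FL and EMX1-X1, -0.124 between the vector control and EMX1-FL, and 0.0958 between the vector control and EMX1-X1. Deviations were taken from means of 3 libraries, so the values for same and different numbers depend on each other. They also include the separation into clusters A and B. Whether the numbers pair the samples was therefore not settled, and the main test used no pairing. With the replicate number as a block 0 members were called in each comparison, and NKD1 for EMX1-FL was at 0.37 and NOTUM for EMX1-X1 at 0.76. FZD8 (-1.20) between the isoforms and RSPO3 (1.26) for EMX1-FL were no longer called under the block.

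Over all genes tested, 450, 464 and 263 were called in the 3 comparisons, 947, 962 and 686 without the filter, 217, 214 and 121 with at least 10 counts in every library, and 142, 177 and 107 with limma on log2(TPM + 1). Without EMX1-FL library 1, 676 were called for EMX1-FL against the vector control and 1108 between the isoforms. Without EMX1-X1 library 1, 906 were called for EMX1-X1 and 759 between the isoforms, which fell to 162 and 141 without EMX1-X1 2 and 3. The median of all genes was 0.11 in both contrasts with the vector control for log2(TPM + 0.1), against 0.04 and 0.01. The counts of RNF43, DKK1, SP5 and LGR5 limit what can be said of them.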
